A study of Mus musculus with 10 samples.

Results

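The RNA content of the unoperated mouse optic nerve head was described from 5 of the 10 arrays of a study on raised eye pressure, namely the 5 whose labels call them control. Each array carried RNA pooled from 2 nerve heads, and the study used 10 male C57Bl/6 mice aged 6 to 8 weeks. The control nerve heads were the left eyes of animals whose right eye had its pressure set to 30 mmHg for 1 h from a saline bag, and tissue was taken 3 days after that procedure. No contrast with the operated eyes is made here, and the arrays of those eyes, which come from the same mice, serve only as a further set in which the spread of the same genes was measured. The baseline is therefore that of fellow eyes in operated animals, averaged over 2 nerve heads an array, and the labels do not say how far into the nerve or the surrounding eye wall the dissection reached. Total RNA had an integrity number above 9.1, and 30 ng of it was amplified and labelled with biotin.

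The optic nerve head is the place where the axons of retinal ganglion cells gather and leave the eye. In the mouse the axons there run between astrocytes without a stiff collagen plate, are bare of myelin inside the eye, and are wrapped by oligodendrocytes a short way behind it. Retina, pigment epithelium, choroid, sclera and the meninges of the nerve border the tissue on all sides, so that a dissected piece can hold cells of each.

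Of 22690 probe sets, 20380 carried a single gene symbol, and for each of 12393 genes the probe set with the highest mean log2(signal + 16) over the 5 arrays was kept. The signal is a linear intensity in arbitrary units. A probe set's signal depends on its hybridisation as well as on transcript number, so the ranks below order probe set signals, and 2 genes with unequal signals need not differ in transcript number. In pooled tissue, fewer cells of a type and less RNA per cell cannot be told apart. The median of all probe sets on the 5 arrays lay between 447 and 471, pairwise correlations of log2 values over genes lay between 0.987 and 0.993, and the 3' control probe set divided by its 5' partner gave 1.53 to 1.59 for Gapdh and 1.65 to 1.94 for actin. Because no detection values were used, 60 olfactory and vomeronasal receptor genes, which are thought to be silent outside their sense organs, served as a reference for dim signal. Their median was 19.7 and the 95th percentile 41.0, and 10355 genes (83.6%) lay above that percentile. Of these, pools 1 to 5 were the highest for 28.9%, 17.9%, 18.9%, 19.5% and 14.8% and the lowest for 18.1%, 19.95%, 16.03%, 22.7% and 23.3%, the background for each count of members below. Xist, which is transcribed from the inactive X chromosome of females, was not above this dim reference at 39.2 ± 4.78 (SD, n = 5). The Y-linked Eif2s3y (746 ± 115), Kdm5d (578 ± 91.9) and Uty (165 ± 17.5, all SD, n = 5) were above it, matching the labelled sex.

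The median gene had a mean signal of 713, and 122 genes exceeded 10000. The brightest probe sets belonged to cytoskeletal, secreted, iron-storing and ribosomal proteins (plot of the 25 brightest genes). Lgals1, which encodes the sugar-binding lectin galectin-1, stood first with 17179, 16719.9, 16319, 16445 and 17521 in pools 1 to 5, the order used for every set of values below. Vim, the intermediate filament protein vimentin of glia and mesenchymal cells, followed with 16493, 16319, 16388, 15496 and 15974. The highest of these 10 values exceeded the lowest by a small margin, and neither gene had a pool that stood apart.

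Fth1, the heavy chain of the iron store ferritin, was the third gene at 16021 ± 472 (SD, n = 5). Behind it came the secreted proteins Ptgds, the prostaglandin D synthase of meninges and oligodendrocytes (15152 ± 1191), and Cst3, the protease inhibitor cystatin C (15027 ± 768, both SD, n = 5). The sixth gene was Cartpt, the precursor of the neuropeptide CART, with 16418, 14613, 14101, 13892 and 15469.5. It was bright in all 5 pools, highest in pool 1 and lowest in pool 4. No neuronal, retinal or vascular list described below had a member among the 100 brightest genes.

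Other genes among the 25 were Sparc, a matrix-binding glycoprotein (14699.6 ± 500), Dbi, an acyl-CoA-binding protein (14743 ± 282), Clu, the secreted chaperone clusterin (13478 ± 755), and Mbp, myelin basic protein (14355 ± 806, all SD, n = 5). Actb and Tmsb4x, for beta-actin and the actin-binding thymosin beta-4, and Tuba1a, an alpha-tubulin, represented the cytoskeleton. Ribosomal protein genes made up 7 of the 25 and 23 of the 100 brightest, respiratory chain genes 5 of the 100. Among the 100 were also 5 myelin, 4 astrocyte and 3 fibroblast markers. The SD of the 25 over pools ran from 0.03 to 0.16 on the log2 scale, with Ndrg1, a gene of myelinating glia and epithelia, at the upper end because pool 4 (10845) lay below the other pools (12645 to 14197). The 26th gene, the interferon-induced membrane protein Ifitm3, was close behind the 25th at 12613 against 12650. Whether signals this near the top of the range (20168) are compressed was not tested.

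**Figure D1:**
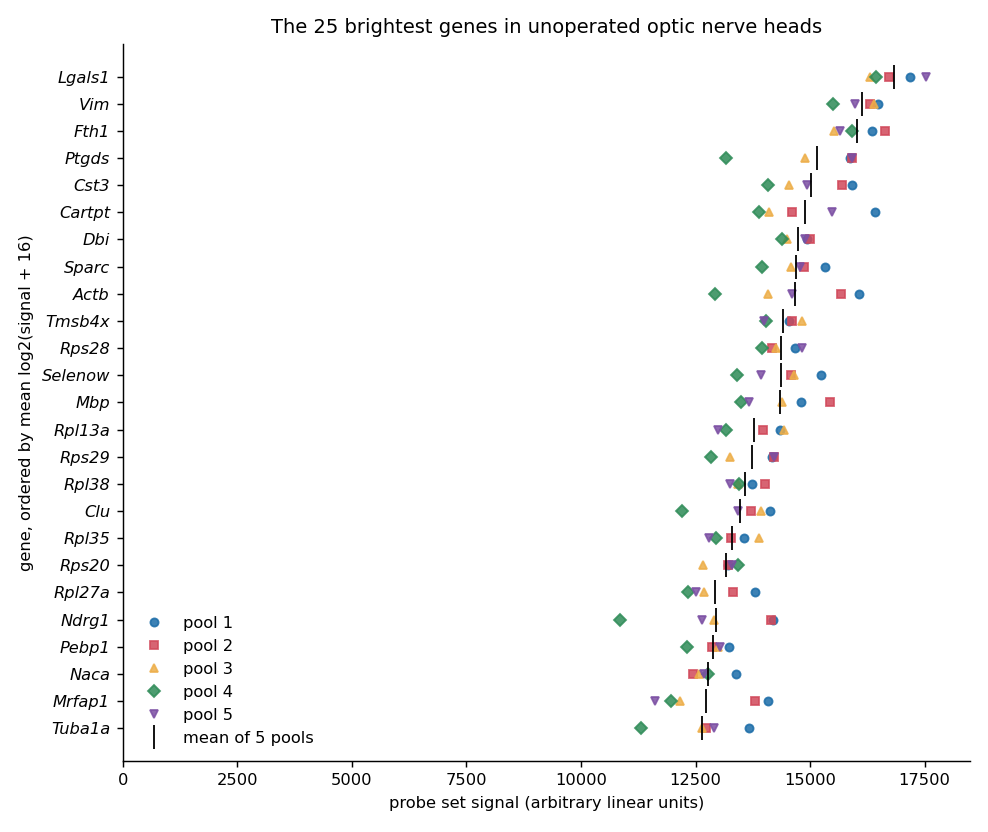
Probe set signal (linear axis from 0, arbitrary units) of the 25 brightest genes in each of the 5 unoperated pools; symbols are pools and bars the mean. Lgals1 (mean 16837) and Vim (16134) lead, and within each gene the pools lie close together. Pool 4 is the lowest for most of the 25 genes, among them Ptgds, Actb and Ndrg1.

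Marker lists for 21 cell types gave a first view of what the dissected tissue held (plot of marker signals by cell type). The fibroblast list had the highest median signal, 6548, ahead of myelinating oligodendrocytes (6228), astrocytes (5077) and microglia (3835). Mural cells (2356), border macrophages (1656), endothelium (1331) and oligodendrocyte precursors (1319) came next. In 11 of 21 lists the median exceeded that of all genes (713). The lowest medians were those of lymphocytes and neutrophils (60.2), red blood cells (38.7) and surface epithelium (26.5), the last 2 below the dim reference. Since each list has its own probe sets, the order of lists is one of probe set signal and gives no share of cells.

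**Figure D2:**
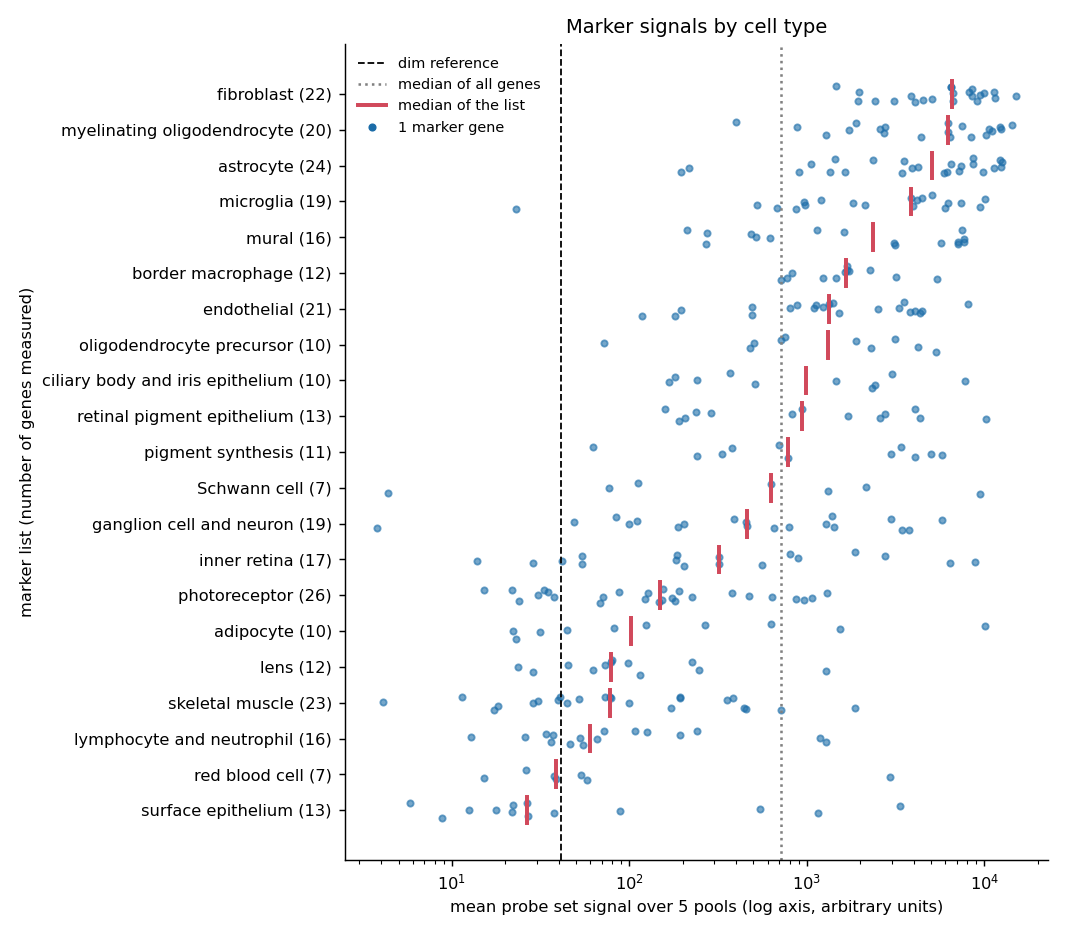
Mean signal over 5 unoperated pools (log axis, arbitrary units) of every measured marker gene, 1 point a gene, in 21 cell type lists ordered by their median (red bar). The dashed line is the dim reference of 41.0 and the dotted line the median of all genes, 713; fibroblast, myelin and astrocyte markers lie to the right and surface epithelium, red blood cell and lymphocyte markers to the left.

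All 24 astrocyte markers were above the dim reference, and their median lay higher than 91.7% of all genes. The brightest was Gja1, which encodes connexin 43 of astrocyte gap junctions, with 12719.8, 13273, 12253, 12053 and 12296. Glul, the glutamine synthetase that clears glutamate, gave 13101, 13349.8, 12453, 11457 and 11924, and Mlc1, a membrane protein of astrocyte end feet, gave 13669, 13282, 11776, 11274 and 11307. Each of these genes varied little, by 1.10-fold, 1.17-fold and 1.21-fold between the highest and the lowest pool.

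Gfap, the intermediate filament of astrocytes, had a signal of 11566, 11791, 11012, 10644 and 11689.6, a mean of 11340.4 ± 492 (SD, n = 5) and rank 65. Aqp4, the water channel of end feet, was lower and less even with 5906, 6425, 6860, 6125 and 4402, lowest in pool 5. Pool 5 was also the lowest for Ntsr2, a low-affinity neurotensin receptor, with 1578, 1989, 2119, 1578 and 912, and for Cldn10, a tight junction protein, with 296, 236, 177, 265 and 113. Cldn10 was the only astrocyte marker with an SD above 0.5. As a score, meaning the average over members of the deviation from each gene's 5-pool mean, the astrocyte list stood at 0.00, 0.10, 0.10, -0.03 and -0.17 in pools 1 to 5. The span of 0.27 became 0.13 without pool 5.

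Of 26 myelin and oligodendrocyte genes 20 were measured, all above the dim reference. The structural genes were bright and even on the probe sets kept. Mbp gave 14807, 15433, 14384, 13490.3 and 13658, Mobp, a small basic myelin protein, 12148, 13388, 13413, 11873 and 10732, and Plekhb1, a membrane-associated protein of oligodendrocytes, 12773, 12937, 12549, 11493 and 11939. Cryab, a small heat shock protein abundant in oligodendrocytes, had a mean of 11036 ± 385 (SD, n = 5). Other probe sets of the same genes were less even, with SDs of 0.22 and 0.51 for Mobp and up to 0.70 for Mbp.

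Dimmer myelin genes differed between pools in a shared order. Mag, an adhesion protein of the innermost myelin wrap, had 1821, 3445, 4402, 2096 and 1923, and Gjb1, connexin 32, had 578, 1349, 1255, 697 and 521. Mog, a protein of the outermost myelin surface, gave 4796, 7531, 7989, 6302 and 4635. Pools 2 and 3 were the highest for all of these, as they were for 17 of the 20 members, against 11.9% of all genes above the dim reference. The list's scores were -0.18, 0.28, 0.29, -0.07 and -0.32, and all 20 members were higher in pool 3 than in pool 5, by a median of 1.51-fold, where 55.5% of all genes were. Pools 2 and 3 also had the highest pairwise correlation over genes, 0.993, with the next pair at 0.9899. How much myelinated nerve each pool held was not recorded in the labels, and its part in these values was not tested.

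Of 10 oligodendrocyte precursor genes measured, 5 were highest in pools 2 and 3, against the 11.9% of all genes given above. Pdgfra, the receptor that drives precursor division and that fibroblasts also carry, was the brightest at 5351 ± 478 (SD, n = 5) and was highest in pool 1. Olig2, a lineage transcription factor, had 545, 1053, 1091, 689 and 405, and Sox10, which is shared with Schwann cells, had 2576, 3366, 4440.2, 2844 and 2461. Both were highest in pool 3 with pool 2 second. Of 7 Schwann cell genes measured, Pmp22, a peripheral myelin protein that other cells also make, was bright at 9471 ± 408, and Dhh, the hedgehog ligand of Schwann cells, had 2143 ± 349 (both SD, n = 5). Pou3f1, which acts before myelination, gave 375, 923, 942, 607 and 310.3, with pools 2 and 3 again the highest.

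Microglial genes were led by C1qb, a chain of complement C1q, with 9849, 9762, 10768, 9524 and 10269.5. Ctss, a lysosomal protease of macrophages, followed with 9787, 9457, 9638, 9094 and 9511, and Tyrobp, the adaptor of the receptor Trem2, with 6119, 5864, 6624, 6210.5 and 6225. All 3 spanned no more than 1.13-fold. Of 19 microglial markers 18 were above the dim reference and none had an SD above 0.5. The fractalkine receptor Cx3cr1 had 882, 985, 1217, 969 and 823, and P2ry12, the purine receptor of resting microglia, had 492, 658, 618, 480 and 369. Pool 3 was the highest for 13 of the list's 18 members above the dim reference, against 18.9% of all genes. Without pool 3 the list's score span fell from 0.28 to 0.09.

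Border macrophage genes, which mark macrophages of meninges and vessel walls, were all above the dim reference. The antigen-presenting genes Cd74 (5434 ± 917), H2-Ab1 (3164 ± 540.4) and H2-Aa (2257 ± 627, all SD, n = 5) were highest in pool 5 and lowest in pool 4. Mrc1, the mannose receptor, gave 2214, 1219, 1649, 1856 and 1645, and Ms4a7, a macrophage membrane protein, gave 2361, 1106, 1418, 1696 and 1804. These were highest in pool 1 and lowest in pool 2, so the list held more than a single order of pools.

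All 22 fibroblast markers were above the dim reference, and 14 were among the 1000 brightest genes. Besides Ptgds the brightest were Mgp, the calcification inhibitor matrix Gla protein, with 13058, 10579, 11403, 11265 and 11105, and Fmod, a collagen-binding proteoglycan, with 11673, 10744, 12373, 10066 and 11651. Col1a1, the main chain of type I collagen, had 7547, 6570, 5877, 5600 and 6621. Islr, a secreted protein of mesenchymal cells, was nearly level at 9914 ± 392 (SD, n = 5).

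Dpt, a matrix protein that binds collagen, stood apart in pool 5 with 2071, 1706, 1818, 1895 and 4568. Lum, the corneal and scleral proteoglycan lumican, had 4746, 2834, 2826, 4171 and 4632, with pools 2 and 3 below the rest. Among 28 genes of basement membrane and matrix, pool 5 was the highest for 14 and pool 2 the lowest for 17, against 14.8% and 19.95% of all genes above the dim reference. The protease inhibitor Timp1 stood apart in pool 5 with 1931, 1555, 1776, 1884 and 4791, while the related Timp2 (9218 ± 383) and Timp3 (8599 ± 694, both SD, n = 5) did not. Mmp2, a gelatinase, was highest in pool 5 too, with 2059.9, 1095, 1322, 1619.7 and 3274. Fn1, fibronectin, stayed at 7729 ± 491 (SD, n = 5).

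Endothelial genes were all above the dim reference. Slc2a1, the glucose transporter of barrier vessels, was the brightest with 9025, 8326, 7768, 8030.4 and 7496, and Cldn5, the tight junction protein of the blood-brain barrier, had 4589, 3883, 4179, 5139 and 4559.9. Abcb1a, the efflux pump of the same vessels, gave 4314 ± 415, and Vwf, von Willebrand factor, gave 4045 ± 482 (both SD, n = 5). Pecam1, an adhesion molecule of all endothelium, was dim on its probe set with 294, 108, 175, 172 and 156.

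The 2 most variable endothelial members were Emcn and Plvap. Emcn, a sialomucin of veins and capillaries, had 2427, 769, 1129, 1533 and 1137, and Plvap, the diaphragm protein of fenestrated vessels such as those of the choroid, had 1148, 453, 709, 1110.5 and 595. For both, pool 2 was the lowest. Over the list, 18 of 21 genes were lowest in pool 2 and 15 highest in pool 1, against 19.95% and 28.9% of all genes above the dim reference. The scores were 0.38, -0.34, -0.07, 0.14 and -0.11, and the span of 0.72 became 0.48 without pool 1 and 0.50 without pool 2.

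Smooth muscle and pericyte genes had a similar order of scores, 0.27, -0.34, -0.03, 0.15 and -0.06. Acta2, smooth muscle actin, gave 8889.7, 4494, 8226, 9188 and 7418, and Tagln, an actin-binding protein of smooth muscle, gave 8258, 5904, 7040.1, 7742 and 6481. Vtn, vitronectin, which brain pericytes make, had 8424, 7399.8, 7855, 6649.8 and 7129 and was lowest in pool 4. Des, the muscle intermediate filament, was dim with 386, 92.5, 215, 175 and 183, and Myh11, smooth muscle myosin, had 563, 267, 423, 845 and 491. Pool 2 was the lowest for Acta2, Tagln, Des and Myh11, and for 9 of the list's 16 members, against 19.95% of all genes. Pool 5 was the lowest for 4 members, against 23.3% of all genes. The span of 0.61 fell to 0.33 without pool 2.

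Neuronal RNA was present at middling signal, with a list median of 459. Uchl1, a neuronal ubiquitin hydrolase that is carried in axons, was the brightest of the list and even over pools, with 5759.5, 5532, 5817, 5524 and 6130.1. The neurofilament genes Nefh (3984, 3391, 3648, 3789 and 3944) and Nefl (1344, 1356, 1111, 1550.1 and 1042) spanned 1.18-fold and 1.49-fold. Snap25, a synaptic vesicle fusion protein, was less even with 4366, 2687, 2093, 3827 and 1994, and was high in pools 1 and 4.

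Other members of the list differed in brightness. Ebf1 was bright at 3441 ± 392 (SD, n = 5), and which cells its signal came from was not tested. The 2 most variable members were dim. Slc17a6, the vesicular glutamate transporter of ganglion cells, had 182, 181, 138, 349 and 91.7, and Chrna6, a nicotinic receptor subunit of these cells, had 151, 67.1, 53.9, 173 and 54.5. Both were highest in pool 4, as were 8 of the 18 members above the dim reference, against 19.5% of all genes. Scores were 0.20, -0.08, -0.21, 0.29 and -0.21 in pools 1 to 5.

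Photoreceptor RNA was low in most pools and highest in pool 4, and the list's brightest members were above the dim reference in all 5 pools. Of 26 genes measured 19 were above the dim reference. The list had a median signal of 149, higher than 26.4% of all genes. Sag, rod arrestin, gave 622, 200.3, 213, 2886 and 894, and Gnat1, rod transducin, gave 569.8, 181, 157, 2604 and 851. Pdc, phosducin, gave 477, 183, 77.2, 1979 and 464, Gngt1, the gamma subunit of rod transducin, 197, 48.0, 33.7, 1334 and 286, and Rcvrn, the calcium sensor recoverin, 82.1, 50.3, 27.8, 568 and 139. Pool 4 was more than 3 times the next highest pool for each of these on the same signal scale.

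The same order reached regulators of rod identity. Nrl, the transcription factor that sets rod fate, had 116, 26.9, 38.3, 467 and 112, and Crx, the homeobox factor of both photoreceptor classes, had 139, 30.4, 19.1, 185 and 61.2. Cone genes did not share it in full, since Gnat2, cone transducin, had 225, 207, 114, 186 and 215 and Opn1sw, the short-wave opsin, had 228, 131, 146, 249 and 371. Abca4, a retinoid transporter, and Rom1, an outer segment protein, were the brightest members but varied less, at 1075 ± 92.8 and 1295 ± 301 (both SD, n = 5). Over the members above the dim reference, 16 of 19 were highest in pool 4, against 19.5% of all genes. All 26 measured members were higher in pool 4 than in pool 3, by a median of 2.31-fold, against 47.5% of all genes. The list's scores were 0.03, -0.58, -0.71, 1.12 and 0.14, and its span of 1.84 became 0.85 without pool 4. The other retina lists are given below, and how much adjoining retina each pool held was not tested.

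Because the rod genes moved together, the RefSeq promoter windows of the list were searched for TAATCC on both strands, the core bound by CRX. In the 250 bases before the start site, on build GRCm38.p6, 9 of 19 members with a window held it (47.4%), against 6.53% of 9887 measured genes and 6.25% of all windows. Windows were found for 19 of the 26 measured members. The stretches of 3 members whose signal peaked in pool 4 are shown to let the site be seen in place, printed 5′ to 3′ on the gene's strand. Capitals mark TAATCC or its reverse complement GGATTA.
Gngt1 (chr6:3993944-3993989, plus strand): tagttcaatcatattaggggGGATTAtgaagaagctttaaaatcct
Aipl1 (chr11:72037537-72037582, minus strand): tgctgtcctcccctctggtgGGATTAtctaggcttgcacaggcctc
Crx (chr7:15879956-15880069, minus strand): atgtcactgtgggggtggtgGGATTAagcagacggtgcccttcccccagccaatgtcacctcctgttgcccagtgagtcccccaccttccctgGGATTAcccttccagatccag
Aipl1, a chaperone of the rod phosphodiesterase, had 68.7, 62.7, 37.7, 358 and 111. The motif was also held by Gnat2, by Abca4, which was highest in pool 4 by a small margin, and by Cnga1, a rod channel subunit at 122 ± 10.7 (SD, n = 5). A match is a description of the letters and no evidence of binding.

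Inner retinal genes split by brightness. Dkk3, a secreted Wnt pathway protein (8899 ± 384), Slc6a9, a glycine transporter of amacrine cells and glia (6358 ± 1103), and Rlbp1, the retinal-binding protein of Müller glia and pigment epithelium (2759 ± 522, all SD, n = 5), were bright. Genes more restricted to retinal interneurons were dim, and high in pools 1 and 4. Gad1, the enzyme that makes GABA, had 491, 33.9, 42.8, 365 and 83.4, and Gng13, a G protein subunit of bipolar cells, had 656, 216, 141, 384 and 197. Pcp2, a bipolar cell gene that Purkinje cells share, ran differently on the probe set kept, with 2129, 2295, 1853, 1682 and 1409. Dimmer probe sets of Pcp2, with mean signals of 101 and 137, had SDs of 1.13 and 1.04 and were highest in pool 1. The list's scores were 0.52, -0.27, -0.33, 0.25 and -0.17, with 11 of 14 members above the dim reference highest in pool 1.

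Among the 25 most variable genes were further genes known from retinal interneurons and photoreceptors. Neurod4, a factor of bipolar and amacrine cell fate, had 776, 37.6, 22.6, 265 and 235, and Neurod1, a factor of photoreceptor and amacrine fate, had 312, 33.9, 21.3, 474 and 173. Cplx3, the complexin of ribbon synapses, gave 1049.8, 101, 73.6, 788 and 335, Gabrr1, a GABA receptor subunit of bipolar cells, 297, 16.6, 13.03, 129.7 and 52.4, and Rbp3, the retinoid carrier between photoreceptors and pigment epithelium, 614, 122, 113, 1011 and 698. Pools 2 and 3 were the lowest for all 5. The highest was pool 1 for Neurod4, Cplx3 and Gabrr1 and pool 4 for Neurod1 and Rbp3, so retinal genes did not have a single order of pools.

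Pigment epithelium genes had a score span of 2.12, the widest over all measured members. Over members above the dim reference the photoreceptor list was wider, at 2.31 against 2.12, as it was without pool 1 or without pool 5. Rpe65, the isomerase of the visual cycle, gave 2185, 469, 604, 1362 and 87.5. Rgr, an opsin of the same cells, gave 5588, 1738, 1869, 3346 and 438, and Lrat, which makes the retinyl esters that Rpe65 uses, 613, 146, 206, 417 and 53.1. Pool 1 was the highest and pool 5 the lowest for all 3, and the highest signal of Rpe65 was 24.97 times the lowest. Rrh, the opsin peropsin, followed the same order with 454, 89.7, 114, 249 and 44.0.

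Ttr, the thyroxine and retinol carrier transthyretin, was by far the brightest of the list and had the same order with 13821, 9608, 10411, 11052 and 5833. Slc6a20a, an amino acid transporter that other cells also use, did not share it, with 4274, 4592, 4218, 4334 and 4336, and Stra6, the retinol-binding protein receptor, was lowest in pool 3 at 2943. Pool 1 was the highest for 12 of 13 members and pool 5 the lowest for 11, against 28.9% and 23.3% of all genes above the dim reference. Scores were 1.05, -0.32, -0.18, 0.52 and -1.07. The span became 1.37 without pool 5 and 1.58 without pool 1.

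Genes of melanin synthesis, active in pigment epithelium, choroid and iris melanocytes, had another order. Tyr, tyrosinase, gave 1705, 168, 294, 775 and 546, and Tyrp1, a tyrosinase-related protein, gave 8349, 2263, 3043, 5597 and 5629. Dct, dopachrome tautomerase, gave 8944, 2700.2, 4401, 6755 and 6111, and Pmel, the fibril protein of melanosomes, 6557, 1462, 2013, 3228 and 3744. Pool 1 was the highest for each, and pool 2 the lowest. Oca2, a melanosomal channel, had 805, 163, 126, 442 and 357, and Mitf, the master factor of pigment cells, 5555, 3738, 3630, 4105 and 3415. Pool 1 was the highest for all 11 members, with scores of 1.05, -0.79, -0.60, 0.20 and 0.14 and a span of 1.84 that became 1.00 without pool 1. Pool 5, where Rpe65 was near the dim reference, kept Tyrp1 and Dct at 5629 and 6111. In this pool melanin genes and visual cycle genes thus had different levels relative to the other pools.

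The M-box CATGTG, the core bound by MITF, was searched on both strands of the same windows. It was found in 4 of 7 pigment genes with a window (57.1%), against 9.93% of measured genes and 12.3% of all windows. The 2 stretches nearest the start site are shown for the gene with the largest spread and for Tyrp1, with the motif in capitals.
Tyr (chr7:87493513-87493553, minus strand): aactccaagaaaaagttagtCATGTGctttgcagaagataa
Tyrp1 (chr4:80834147-80834192, plus strand): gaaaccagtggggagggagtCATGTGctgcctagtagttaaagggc
The other members with a match were Dct and Oca2.

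Lens genes were dim except Crygs, gamma-S-crystallin, which is also made in retina and gave 787, 1036, 1202, 1193 and 2201. Pool 5 stood above the rest for Crybb2 (56.6, 63.6, 62.6, 74.8 and 319.5) and Crygb (30.0, 43.8, 48.4, 48.7 and 220.4), both structural crystallins of lens fibres. The score was 0.83 in pool 5 and between -0.34 and -0.13 in the others, so that the span of 1.17 fell to 0.20 without pool 5. Over the 12 lens genes measured, 9 were above the dim reference and 5 of these were highest in pool 5, against 14.8% of all genes. The others of the 9 did not share this peak, with 2 highest in pool 2 and 2 in pool 3.

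Lists for tissue around the nerve and for blood were mostly dim. Skeletal muscle genes had a median of 78.1, with 15 of 23 above the dim reference, and the brightest was Pvalb, the calcium buffer parvalbumin that neurons share, at 1874 ± 357 (SD, n = 5). Tnni2, fast troponin I, had 1028, 571, 604, 746 and 605. Fabp4, the fatty acid carrier of fat cells and capillaries, was uneven with 65.8, 36.5, 268, 67.4 and 179, whereas Scd1, a desaturase also strong in oligodendrocytes, gave 10022 ± 869.8 (SD, n = 5). Hba-a2, an alpha-globin, had 3307, 2683, 2808, 3078 and 2748, and other red cell genes such as Alas2 (53.0 ± 14.3, SD, n = 5) lay near the dim reference. Cdh1, E-cadherin, had 3340 ± 592, but the keratin gene Krt4 only 88.0 ± 25.3 and Aldh3a1, a corneal crystallin, 545 ± 301 (all SD, n = 5). Of the ciliary and iris list Zic1, a transcription factor that meninges also express, was the brightest at 7816 ± 891 (SD, n = 5).

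The most variable gene over the 5 pools was S100a9, a neutrophil gene, whose SD of 2.16 fell to 1.28 without pool 2. This subunit of calprotectin had 2861, 54.3, 398, 2211 and 865, and its partner S100a8 had 2495, 143, 364, 1672 and 1253. Both were highest in pools 1 and 4 and lowest in pool 2. Camp, the neutrophil peptide cathelicidin, varied less with 273, 181, 162, 252 and 332, and Cd3e, a chain of the T cell receptor complex, was dim with 229, 279, 130, 129 and 200.4. Camp thus did not match the 2 calprotectin subunits in spread. Of the list's 11 members above the dim reference 4 had an SD above 0.5, S100a8 and S100a9 among them, against 4.33% of all genes.

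**Figure D3:**
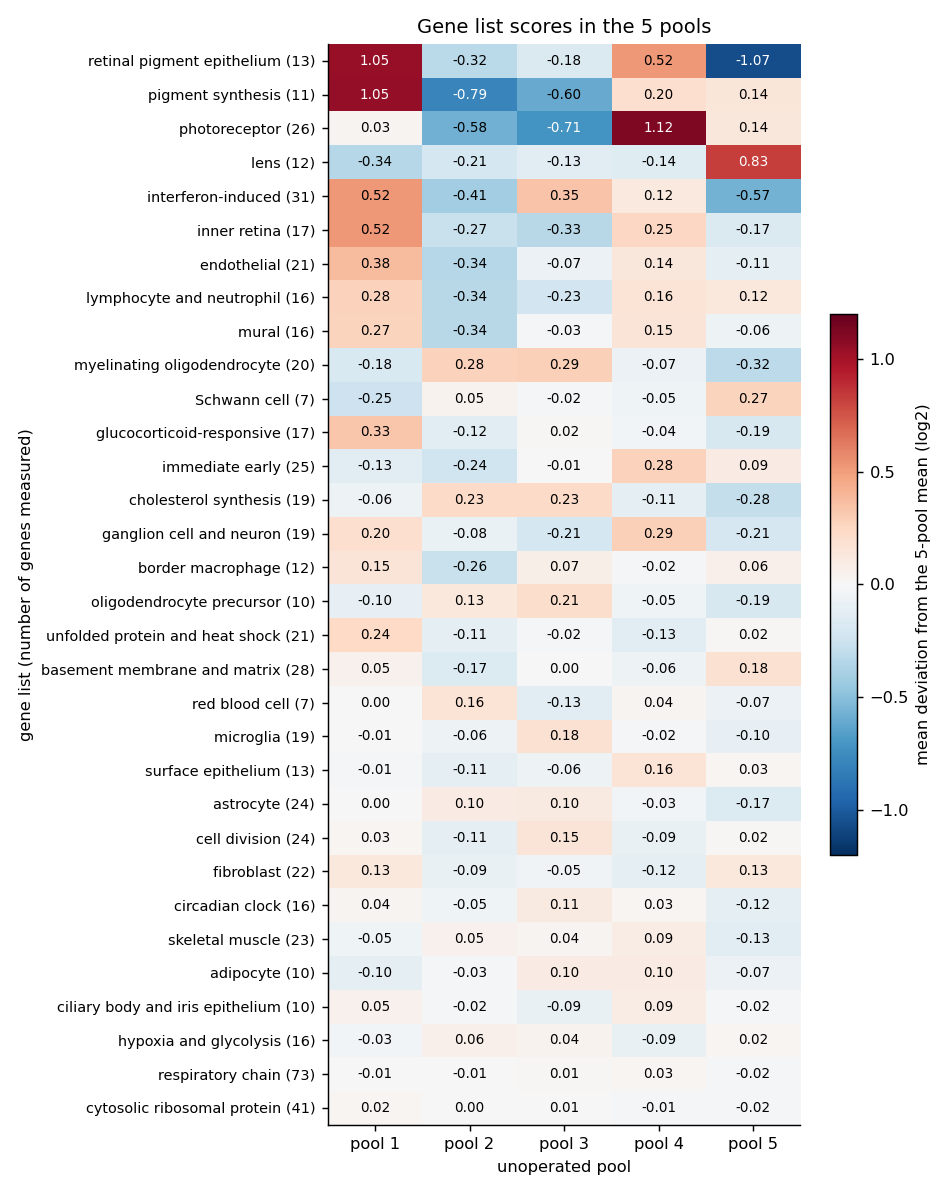
Score of each gene list in the 5 unoperated pools, the average over members of log2(signal + 16) minus the gene's 5-pool mean, ordered by span. Red is above and blue below the 5-pool mean; pigment epithelium runs from 1.05 in pool 1 to -1.07 in pool 5 and photoreceptors from -0.71 in pool 3 to 1.12 in pool 4, while ribosomal and respiratory chain lists stay within 0.03 of 0.

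Interferon-induced genes were well above the dim reference in unoperated tissue and differed between pools together. All 31 measured genes of the list were above it, with a median signal of 1875. Ifit1, which binds foreign RNA ends, was the brightest with 9149.7, 4799.5, 6161, 6237 and 3553, and Ifit3, its partner, had 8181, 4992, 6725, 5507 and 3774. Cxcl10, a chemokine for T cells, had 5929.6, 2760.4, 7274, 5159 and 2578. Pool 5 was the lowest for all 3, and pool 1 the highest for Ifit1 and Ifit3 and pool 3 for Cxcl10.

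Dimmer members spread further. Oasl1, an oligoadenylate synthetase-like protein, gave 793, 126, 403, 308 and 109, and Mx1, an antiviral GTPase, gave 552, 109, 428, 462 and 114. Igtp, an interferon-induced GTPase, was more even with 5165, 3623, 4799.7, 3734 and 2979. Every member was higher in pool 1 than in pool 5, by a median of 2.09-fold, where 59.3% of all genes above the dim reference were. Pool 1 was the highest for 21 members and pool 5 the lowest for 22. Scores were 0.52, -0.41, 0.35, 0.12 and -0.57, and no single pool made the span of 1.09, which stayed between 0.92 and 1.09 when each was left out.

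An interferon response element, searched as GAAANNGAAA on both strands, was held by 12 of 22 members with a window (54.5%), against 3.35% of 9887 measured genes and 2.98% of all windows. The stretches of the 2 brightest members and of Oas1a and Cxcl10, which differ in how many matches they hold and how near the start site these lie, show the range. Capitals mark the matches, and in some stretches a match lies on the other strand or overlaps the next.
Ifit1 (chr19:34640765-34640833, plus strand): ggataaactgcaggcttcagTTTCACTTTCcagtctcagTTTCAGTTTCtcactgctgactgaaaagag
Ifit3 (chr19:34583353-34583436, plus strand): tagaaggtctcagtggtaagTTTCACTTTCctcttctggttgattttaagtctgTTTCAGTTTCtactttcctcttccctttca
Oas1a (chr5:120907526-120907565, minus strand): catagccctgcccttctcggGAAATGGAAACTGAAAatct
Cxcl10 (chr5:92349073-92349122, minus strand): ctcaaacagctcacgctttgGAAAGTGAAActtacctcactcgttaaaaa
Oas1a, which makes the second messenger that activates RNase L, had 2022, 605, 1760.1, 1331 and 725, with pool 1 the highest as for Ifit1 but pool 2 the lowest.

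Cholesterol synthesis, on which myelin depends, was led by Hmgcs1, an enzyme of the mevalonate pathway, with 9231, 10433, 9430.1, 8634 and 8085, and by Dhcr7, the last enzyme of a branch, with 5603, 6843, 6314, 4999 and 4852. Fdft1, squalene synthase, gave 3049, 4492, 4138, 3137 and 2692. Pools 2 and 3 were above the other pools for 15 of 19 members, the order also seen for myelin genes, and pool 5 was the lowest for 17. Scores were -0.06, 0.23, 0.23, -0.11 and -0.28, with a span of 0.51 that became 0.34 without pool 5.

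Several clock genes differed between pools in opposite directions. Dbp, an output factor that the clock drives, had 2647, 3607, 5556, 6189 and 2925, and Per2 and Per3, repressors within the clock, had 622, 402, 749.8, 1116 and 439.5 and 724, 901, 1048, 1451 and 569. These were highest in pool 4. Arntl, which encodes the activator BMAL1, had 1434, 1219.6, 777, 449.8 and 1713, and Npas2, a partner of BMAL1, had 2026, 2217, 1444, 572 and 2065, and both were lowest in pool 4. Nfil3, a repressor of the genes that Dbp activates, was lowest there too, with 728, 383, 486, 217 and 456, while Cry1 (1812 ± 110.3) and Cry2 (1985 ± 91.9, both SD, n = 5) were nearly level.

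The list's score, 0.04, -0.05, 0.11, 0.03 and -0.12, did not show these differences. Of 16 clock genes 8 were highest in pool 4, against 19.5% of all genes, and 4 were lowest there, a share near the 22.7% of all genes. The hour at which each animal was killed is not given in the labels, and its part in these values was not tested. The E-box CACGTG and the D-box TTATGNAA were also searched on both strands of the same promoter windows. Of 14 clock genes with a window 4 held the E-box (28.6%), against 9.19% of measured genes and 6.02% of all windows. The D-box was held by 2 (14.3%), against 2.69% and 3.07%.

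**Figure D4:**
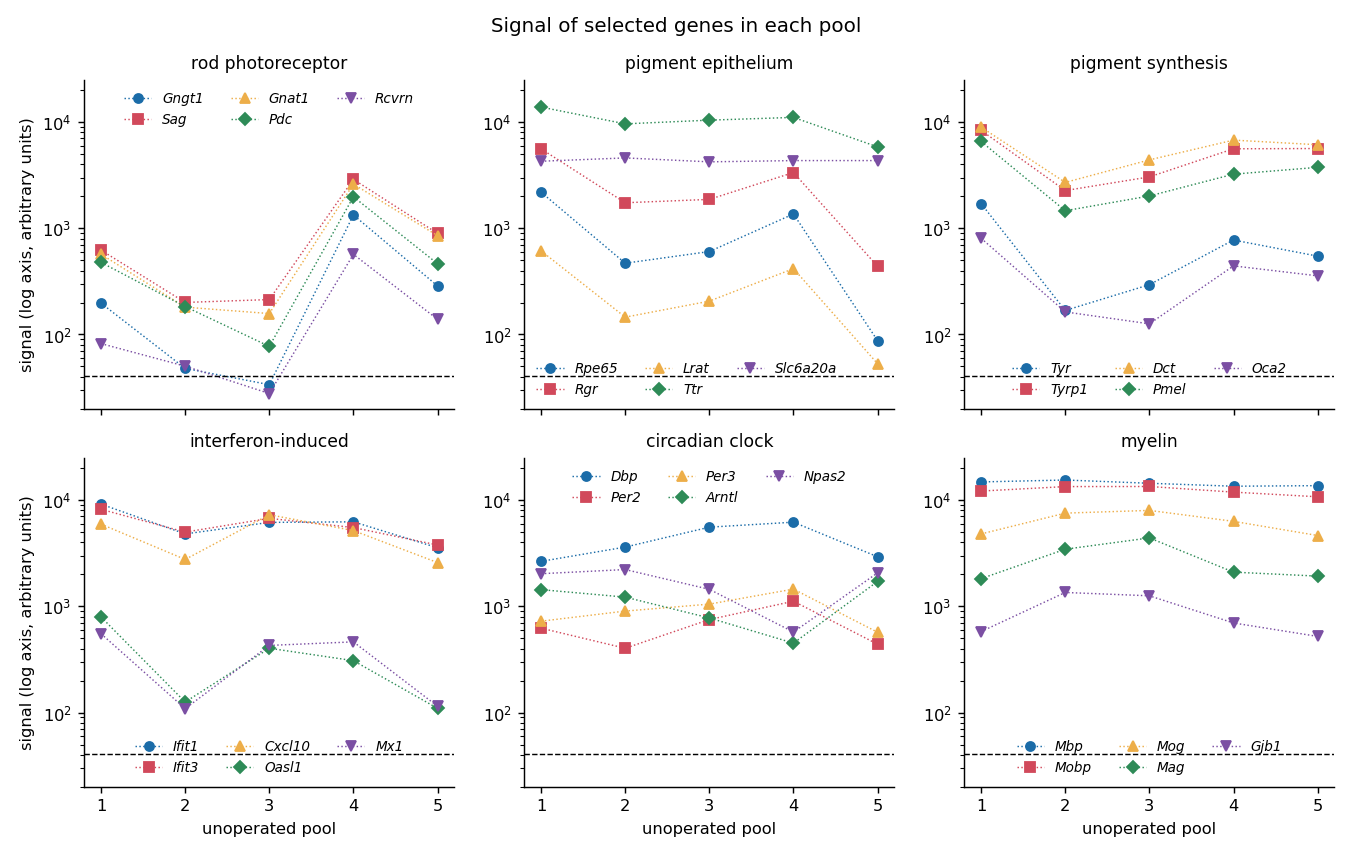
Signal (log axis, arbitrary units) in each unoperated pool of 5 genes from each of 6 lists; dotted lines only join the points of a gene, the pools have no order, and the dashed line is the dim reference of 41.0. Rod genes peak in pool 4, Rpe65 and Lrat are lowest in pool 5, melanin genes peak in pool 1, and Arntl and Npas2 are lowest where Dbp, Per2 and Per3 are highest, in pool 4.

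Immediate early genes, which respond within minutes to activity or handling, were in part bright. Jund, an AP-1 subunit, gave 8951 ± 567, and Jun 6004 ± 651 (both SD, n = 5). Fosb, another AP-1 subunit, was high in pool 4 alone with 280, 165, 511, 1694 and 249, and Egr2, which Schwann cells also use to start myelination, was high in pool 5 with 603, 447, 615, 1319 and 3555. Pool 2 was the lowest for 14 of 24 members above the dim reference. The span of the list's scores, 0.51, became 0.33 without pool 4.

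Glucocorticoid-responsive genes included the metal-binding Mt2 and Mt1, bright at 12246 ± 320.1 and 11385 ± 1016 (both SD, n = 5). Angptl4, a lipase inhibitor, was highest in pool 1 with 938, 262, 317, 564 and 307, and Errfi1, a brake on the EGF receptor, was too with 8314, 6057, 6316, 6221 and 6156. Pool 1 was the highest for 11 of 17 members, and the span of 0.52 fell to 0.21 without it. Pool 1 was also the highest for 14 of 21 heat shock and unfolded protein genes, among them Hsph1 with 8952, 6845, 6759, 5557 and 6439 and Hspa1a with 1213, 614, 733, 588 and 672, both chaperones. That list's span of 0.37 fell to 0.14 without pool 1.

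Glycolytic genes were bright and even, with Aldoa, aldolase, at 12346 ± 182 and Ldha, lactate dehydrogenase, at 9009.9 ± 334 (both SD, n = 5). Pfkfb3, which raises glycolytic flux, was the exception with 2434, 1967, 2015, 1068 and 2180.5, lowest in pool 4. Proliferation genes were dim, with a median of 138. Mki67, a protein of dividing cells, had 83.7, 35.7, 113, 41.4 and 65.8, while Pcna, which also serves DNA repair, had 3094 ± 131 (SD, n = 5). The 41 ribosomal protein genes had a median of 10853 and a score span of 0.04, and the 73 respiratory chain genes a median of 6257 and a span of 0.05. These were the narrowest spans of the 36 lists scored.

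Over the 10355 genes above the dim reference the median SD between pools was 0.16 on the log2 scale, with 0.07 and 0.36 at the 10th and 90th percentile, and the highest pool was a median of 1.32 times the lowest. Spread fell with brightness (plot of spread against brightness). The median SD was 0.25 in the dimmest of 4 equal groups of these genes, then 0.18, 0.14 and 0.11 in brighter groups. An SD above 0.5 was reached by 448 genes (4.33%), 254 of them in the dimmest group and 13 in the brightest, and an SD above 1 by 78.

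**Figure D5:**
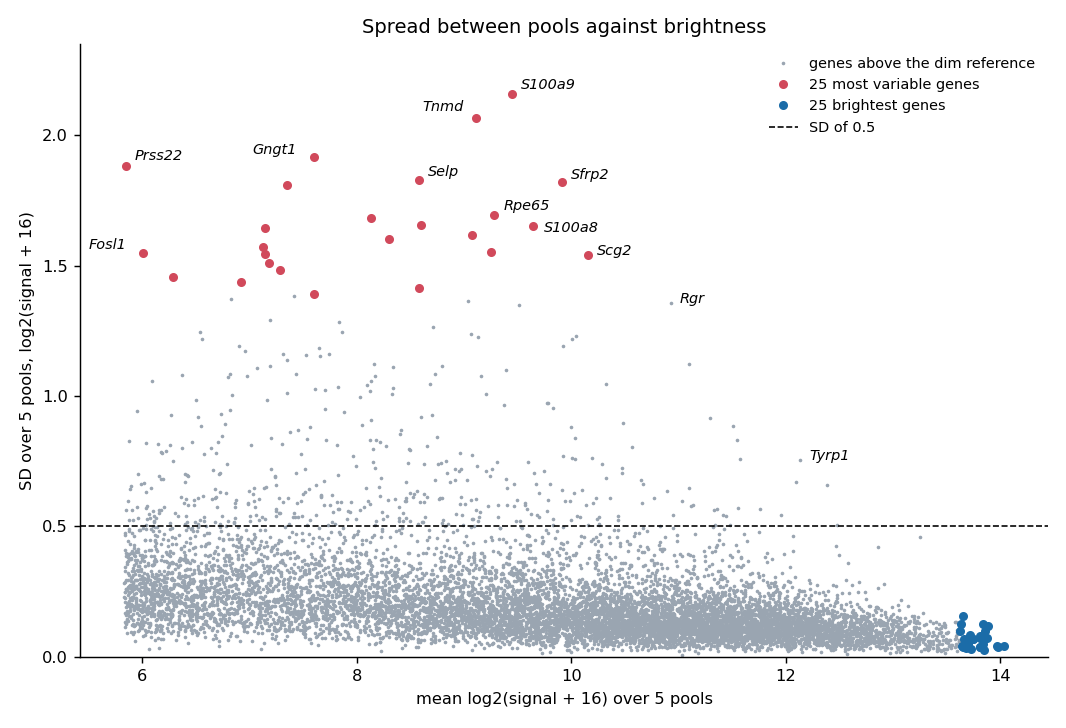
SD over the 5 unoperated pools against mean log2(signal + 16) for 10355 genes; red points are the 25 most variable genes, blue points the 25 brightest, and the dashed line is an SD of 0.5. The most variable genes are S100a9 (2.16) and Tnmd (2.06), and the brightest 25 genes lie between 0.03 and 0.16.

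The 25 most variable genes had SDs from 2.16 down to 1.39. The second, Tnmd, tenomodulin of tendon and sclera, had 2089.5, 42.9, 345, 1581 and 715. Sfrp2, a secreted Wnt inhibitor of fibroblasts, had 2189, 131, 469, 1790.3 and 2969, and Dpep1, a membrane dipeptidase, had 235, 13.9, 130, 162 and 463. Pool 2 was the lowest for all 3. Without pool 2 the SD of Tnmd became 1.15, that of Sfrp2 1.16 and that of Dpep1 0.75.

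The neuropeptide genes Scg2 and Tac2 were among the 25 most variable, and Penk and Nts were chosen after their values were seen. Scg2, secretogranin of neuropeptide granules, had 2967, 213, 781, 1178 and 2972, and Tac2, the precursor of neurokinin B, had 789.6, 95.6, 146, 1189 and 85.2. Scg2 was lowest in pool 2, and Tac2 was high in pools 1 and 4 alone. Penk, the enkephalin precursor, and Nts, the neurotensin precursor, gave 1588, 135, 290.2, 1028 and 499 and 85.2, 65.1, 75.5, 236 and 764. Their signals contrast with the level signal of Cartpt among the brightest genes. Reln, the matrix protein reelin of retinal and lymphatic cells, had 383, 56.1, 48.5, 302 and 451 and was low in pools 2 and 3.

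Genes that stood more than 2-fold above every other pool, measured on signal + 16, numbered 28 in pool 1, 1 in pool 2, 0 in pool 3, 16 in pool 4 and 22 in pool 5. Those more than 2-fold below every other pool numbered 4, 15, 4, 3 and 11. The genes named next were, apart from Selp, Prss22, Fosl1, Fosb, Igkv8-30 and Igk, chosen after their values were seen.

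In pool 1 the gene farthest from the rest was Selp, P-selectin of activated endothelium and platelets, with 3603, 185, 177, 182 and 279, and a second Selp probe set was highest in the same pool. Ackr1, the chemokine-binding receptor of venules, had 4636, 907, 832, 941 and 965, and Icam1, a leukocyte adhesion molecule, had 4329.5, 1506, 1814, 1783 and 1844. Sele, E-selectin of activated endothelium, was dim outside pool 1 with 141, 44.9, 24.5, 28.9 and 24.6. Il1rn, the antagonist of the interleukin 1 receptor, gave 404, 67.5, 45.8, 74.6 and 78.3, and Lcn2, the iron-scavenging lipocalin of inflamed tissue, gave 6974, 1005, 1260.3, 1719 and 3222.

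Of the 16 genes that stood apart in pool 4, 11 were members of the photoreceptor list, and the activity-induced Nr4a1 (274, 133, 230.3, 1158 and 269) and Fosb were among the others. In pool 2 only Bhmt, a methyltransferase of homocysteine, stood above the rest, with 61.8, 247, 107, 46.9 and 62.2. Pool 3 had no such gene.

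In pool 5 the gene farthest from the rest was Prss22, a serine protease of epithelia, with 12.1, 13.3, 19.1, 21.1 and 573. Antibody genes stood apart there. The kappa light chain genes Igk and Igkv8-30 had 107, 100.5, 66.0, 46.3 and 870 and 73.4, 67.4, 75.3, 64.8 and 966, Igha, the constant region of IgA, had 63.6, 104, 73.9, 82.5 and 499, and Jchain, which links IgA and IgM, had 73.2, 117, 95.4, 90.4 and 256. Probe sets of antibody genes can share sequence, so the 2 kappa values may not be independent.

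Fosl1, an AP-1 subunit of wounded epithelium, had 26.2, 11.7, 40.9, 24.2 and 400.1, and Lif, an injury cytokine, had 86.9, 58.4, 64.6, 56.5 and 221. Ccl11, the eosinophil chemokine eotaxin, had 289.9, 212, 291, 294 and 856. In pool 5 these genes were high together with the crystallins, Egr2, Timp1 and Dpt described above. The labels record no event in any unoperated eye, and the source of these signals was not tested.

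Of the 448 genes with an SD above 0.5, pool 1 was the highest for 204 and pool 2 the lowest for 181, against 28.9% and 19.95% of all genes above the dim reference. On the same probe sets, 393 genes had an SD above 0.5 without pool 1. A second probe set above the dim reference was present for 102 of the 448, and it was highest in the same pool for 69. Over the 5 arrays of operated eyes, which are the fellow eyes of the same mice and so no independent animals, the median SD was 0.22. It was taken over the same 10355 genes above the dim reference of unoperated tissue. The 5% of these genes with the largest SD in each set shared 195 of 518 genes (37.6% of either list), where unrelated lists would share about 5%. Of the 25 most variable genes of unoperated tissue, 23 were among that 5% in operated tissue. Spread was larger in dim genes, and the part of brightness in this overlap was not tested. The SD in operated pools was 2.21 for S100a9, 2.46 for Tac2 and 1.54 for Scg2, but 0.34 for Sfrp2.

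At the other end were genes whose signal hardly differed between pools. Dym, a Golgi protein, had 2086, 2076, 2061, 2091 and 2083, and Rab14, a GTPase of endosomes, had 8041, 7997, 7978, 7905 and 8095. Btbd1, an adaptor of ubiquitin ligases, gave 6089, 6043, 6175, 6061 and 6061, and Npc2, the lysosomal cholesterol carrier, 9083, 8805, 8963, 9036 and 8987. The highest pool exceeded the lowest by 1.01-fold to 1.03-fold for these genes. The 9 measured reference genes had a median SD of 0.13, against 0.16 for all genes above the dim reference. However, 7 of the 9 were among the 1000 brightest genes, and the brightest of the 4 equal groups had a lower median SD, 0.11. Eef1a1, a translation factor, and B2m, the light chain of class I antigens, had SDs of 0.07 and 0.07. Actb spanned 1.24-fold, Hprt, a purine salvage enzyme, 1.38-fold with 3003, 2521, 2485, 2659.8 and 2169.9, and Tbp, the TATA-binding protein, 1.67-fold with 578, 506, 420.5, 346 and 405. The low SD of Dym did not hold in the operated pools, where it was 0.27, while Oaz1, an inhibitor of polyamine synthesis at 8369 ± 103 (SD, n = 5), had 0.04 there and 0.02 in the unoperated pools.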

How the data were processed

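The values are the linear probe set intensity that the authors deposited for 10 arrays. How probes were summarised, background corrected and normalized is not given in the sources used here. Only the 5 control columns gave levels, and 0 columns stayed without a sample. Of 22626 probe sets that were not controls, the platform annotation ties 20380 to a single gene symbol and 691 to more than that, and leaves 1555 unnamed. Spread was taken on log2(signal + 16), which understates differences of dim genes, with no further scaling between arrays. No test was made. The number of arrays limits the precision, and the labels call the pools biological replicates. Promoter windows came from RefSeq. A few genes of the fixed set are not reported here.

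The members, lists and rules were chosen with earlier results of these data known. Genes to be named were picked by rule. They were the 25 brightest, and the 25 with the highest and 10 with the lowest SD above the dim reference. Up to 4 brightest and 2 most variable members of each of 37 lists (743 measured genes) and a fixed set were added. Not all of the 245 genes picked this way are given in the text. Ackr1, Aipl1, Bhmt, Ccl11, Cnga1, Crx, Cry1, Cry2, Dbp, Gnat2, Icam1, Ifitm3, Igha, Il1rn, Jchain, Lcn2, Lif, Lrat, Mog, Nfil3, Nr4a1, Nrl, Nts, Oas1a, Opn1sw, Penk, Per2, Per3, Rrh and Sele were chosen after their values were seen. Python 3.11.15 with NumPy 2.4.6, pandas 2.3.3 and Matplotlib 3.10.9 was used, and the scripts were tested on simulated data.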

Additional observations from a re-analysis of the deposited data

Results flagged for a closer look

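In each group of 5 values the gap between the highest or lowest pool and the next was compared with the whole range on the log2(signal + 16) scale. Chance sets about 1 in 20 such groups apart, and among all genes above the dim reference 501 (4.84%) had a pool set apart. Among the 209 genes named in the report and the observations 23 did, and some of these were named because a pool stood apart, so their share is not comparable with that background.

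Pool 5 was far above the others for 12 genes, namely Prss22 at 573, the kappa chain genes Igkv8-30 at 966 and Igk at 870, Igha at 499, Fosl1 at 400.1, Ccl11 at 856, Crybb2 at 319.5, Crygb at 220.4, Dpt at 4568, Timp1 at 4791, S100a3 at 1572 and Clcf1 at 459. The score of the lens list was also far above the others in pool 5, at 0.83. Pool 1 was far above the others for the adhesion and chemokine-binding genes Selp at 3603, Ackr1 at 4636 and Icam1 at 4329.5, for Il1rn at 404, and for Errfi1 at 8314.

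The remaining genes had a pool far below the others. In pool 3 these were Cdh1 at 2334, Gnat2 at 114 and Oaz1 at 8188. Vwf and Lmod1 were low in pool 2, at 3198 and 159, and Pfkfb3 in pool 4 at 1068. For Oaz1 the low value lay within 1.03-fold of the highest, since its pools were nearly level.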

How the results depend on the processing

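Each result was recomputed with equal array medians, quantile normalization, a pseudocount of 1, the mean over a gene's probe sets, the probe set chosen over 10 arrays, and without each pool in turn. With the mean over probe sets, 14 of the 25 brightest genes stayed among the 25, and without a pool 23 to 24 did. The number of genes above the dim reference was 7671 with liver, testis and pancreas genes as the reference and 10577 at the 90th percentile of the receptors, and 10145 to 10442 without a pool. The number of genes with SD over 0.5 was 600 with a pseudocount of 1, 378 with the mean over probe sets, and 388 to 532 without a pool. The median SD over pools was 0.14 to 0.16 without a pool. The number of lists with a score span over 0.5 was 14, with 9 to 14 without a pool (9 without pool 1 and 9 without pool 5) and 11 with equal array medians, where 12 of the 14 kept their highest pool. Of the 25 most variable genes 17 to 24 remained among the 25 under these settings. With the mean over probe sets, the mean of 107 of the 245 genes picked by rule moved by more than their SD between pools. No paired analysis was possible because the results come from no test and no groups were compared. The signal of dim genes near the reference may be largely background, so their folds are uncertain, and neither the dissected length of nerve nor the time of collection is in the labels.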

Other observations

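Further genes stood apart in a pool, and all named here were chosen after their values were seen. Pool 1 had the highest signal of the myeloid lectins Clec4d, with 1133, 269, 262, 526 and 239, and Clec4n, with 248, 38.6, 62.3, 92.0 and 98.5, and of Chil3, a chitinase-like protein of macrophages and neutrophils, with 532, 108, 40.1, 64.8 and 203. Thbs1, the matrix protein thrombospondin, had 799, 171, 177, 292 and 179. For all 4, pool 1 was more than 2-fold above the next pool on the signal + 16 scale.

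Pool 5 was the highest for a further 4 genes. Cdsn, corneodesmosin of skin, had 249, 407, 342, 296 and 1152, and S100a3, a calcium-binding protein of hair, had 265, 334, 345, 233 and 1572. The surface epithelium list did not follow these, with a score of 0.03 in pool 5 against 0.16 in pool 4. Only 4 of its 13 members were above the dim reference, and over these the scores were 0.21 in pool 1, 0.18 in pool 4 and 0.06 in pool 5. Sfrp4, a secreted Wnt inhibitor, gave 1097, 470.1, 432, 1327 and 3531, and Clcf1, a cytokine that acts on the same receptor subunits as Lif, gave 107, 129, 121, 93.4 and 459. In pool 2 the smooth muscle genes Actg2 (528, 110.2, 252, 393 and 356) and Lmod1 (349, 159, 461, 464 and 354) were more than 2-fold below every other pool, as was Svep1, a matrix adhesion protein, with 197, 47.1, 128, 137 and 121.

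Probe sets of 1 gene differed widely in places. The 8 probe sets of Mbp had mean signals between 348 and 14355, and the dimmer of those 2 was highest in pool 1 where the brighter was highest in pool 2. All 3 Tyrp1 probe sets, by contrast, were highest in pool 1 and lowest in pool 2.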
